A study of Mus musculus with 6 samples.

Results

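The imprinted Meg3 locus of mouse chromosome 12, also called the Dlk1-Dio3 interval, was described here by 8 annotated genes of 53465 in the deposited table of gene levels. The 8 were chosen by name: the noncoding host transcripts Meg3, Rian and Mirg, the microRNA genes Mir341 and Mir496a, and the protein-coding genes Dlk1, Rtl1 and Dio3. They were selected with the difference between the groups already known, so their own levels and fold changes are a description and carry no test. RNA from male C57BL/6J mice, perfused with saline, was taken from the right hippocampus, selected with oligo-dT and sequenced. The Sham group held 3 samples, and the tMCAO group held 3 samples from mice in which a filament passed into the right internal carotid artery had blocked the middle cerebral artery for 50 min before it was withdrawn. Neither the age of the mice nor the time from reperfusion to collection was given in the sources used here. Whether each sample is a separate animal was not stated, and p-values therefore reflect no more than the spread among the samples, which may be technical. The tMCAO libraries are called tMCAO 1 to 3 after their columns in the deposited table.

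In the mouse, the Dlk1-Dio3 interval is expressed according to the parent of origin. The paternal copy expresses the protein-coding genes Dlk1, Rtl1 and Dio3, and the maternal copy expresses Meg3, Rian, Mirg and a transcript antisense to Rtl1, all in the same direction. Meg3 is a long noncoding RNA kept largely in the nucleus. Rian carries small nucleolar RNAs and microRNAs in its introns, Mirg carries many microRNAs, and these RNAs are abundant in neurons of the adult brain.

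The mature microRNAs of the genes that the results turn on are shown because the levels of their rows differed more between the groups than those of their hosts. A poly(A) library does not measure the mature forms: each row counts reads over the annotated hairpin gene, so a read can come from the unprocessed host. The sequences are those of RefSeq on GRCm38.p6, given 5′ to 3′ on the plus strand of chromosome 12, with the seed (bases 2 to 8) in capitals.
mmu-miR-341-5p: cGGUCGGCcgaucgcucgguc
mmu-miR-341-3p: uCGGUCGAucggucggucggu
mmu-miR-1188-5p: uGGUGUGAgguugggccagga
mmu-miR-1188-3p: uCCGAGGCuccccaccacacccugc
mmu-miR-496a-5p: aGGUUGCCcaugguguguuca
mmu-miR-496a-3p: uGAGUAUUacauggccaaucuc
mmu-miR-453: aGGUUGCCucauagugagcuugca
The 5p arm of miR-496a and miR-453 share the seed GGUUGCC, and both hairpins lie in introns of Mirg. RefSeq held mature sequences for 61 of the 67 microRNA rows of the interval, giving 113 mature microRNAs with 104 seeds. Only 9 seeds were shared, by 18 of the mature microRNAs.

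The interval from the start of Dlk1 to the end of Dio3 spanned chr12:109452823-110281097 on mm10, the build named in the submitters' processing notes. It held 118 annotated rows, among them 67 microRNA and 23 snoRNA rows. A value above 0 in any library was found for 80 rows, and 38 rows, all 8 chosen genes among them, had a mean of at least 0.5 FPKM. Rows wholly within exons of another row on the same strand were at 0 in every library. A value of 0 in such a row does not show that its RNA was absent. FPKM are fragments per kilobase of exon, scaled by a depth factor that was close but not equal to the library's assigned reads.

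Meg3 was the most abundant of the 8 genes in every library and was lower after tMCAO. The gene (ENSMUSG00000021268, lincRNA, chr12:109541001-109571726, plus strand) has 18089 bases of exon. Its level was 273, 258 and 254 FPKM in Sham 1, 2 and 3 and 155, 189 and 224 FPKM in tMCAO 1, 2 and 3. Every tMCAO library was below every Sham library, and the tMCAO libraries were spread more widely than the Sham libraries. The means were 262 ± 10.3 and 189 ± 34.9 FPKM (SD, n = 3 each), a log2 fold change of -0.48 (SE 0.14) for tMCAO over Sham on the log2(FPKM + 1) scale. Between 160162 and 257755 reads stood behind each value. Meg3 took 0.50%, 0.455% and 0.455% of all assigned reads in the Sham libraries and 0.277%, 0.345% and 0.390% in the tMCAO libraries. In whole tissue, fewer cells of a type and less RNA per cell cannot be told apart.

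An antisense row overlaps Meg3. Gm26906 (lincRNA, minus strand) has 1228 bases of exon, and all of them lie within exons of Meg3. No source used here states whether counting used the strand, but the counts have the pattern of counting by strand. Rows wholly within exons of another row on the same strand, such as Mir770 in Meg3, held 0 reads in every library. Gm26906, wholly within exons on the opposite strand, held 21741 reads in Sham and 33682 in tMCAO. Reads of the pair were thus kept apart by strand, and how many were placed on the wrong strand was not tested. Gm26906 was at 136, 148 and 135 FPKM in the Sham libraries and at 130, 134 and 192 FPKM in the tMCAO libraries. Its log2 fold change was 0.09, with an adjusted p of 0.69 by limma. The ratio of Gm26906 to Meg3 was 0.499, 0.576 and 0.532 in Sham 1, 2 and 3 and 0.839, 0.709 and 0.855 in tMCAO 1, 2 and 3, with no overlap between the groups.

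A start of Meg3 is shown because its level differed most among the long host transcripts. RefSeq places it in the window chr12:109540746-109541045 (GRCm38.p6, plus strand), which holds 250 bases before the start and 50 from it. A second RefSeq window, chr12:109545148-109545447, is not printed, and none of the motifs searched was found in it.
Meg3 promoter: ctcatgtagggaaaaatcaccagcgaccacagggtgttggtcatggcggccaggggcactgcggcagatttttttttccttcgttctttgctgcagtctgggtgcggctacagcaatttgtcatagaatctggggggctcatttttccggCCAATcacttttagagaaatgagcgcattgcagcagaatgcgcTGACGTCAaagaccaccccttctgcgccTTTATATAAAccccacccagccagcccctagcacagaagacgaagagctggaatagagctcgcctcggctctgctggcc
Capitals mark matches on either strand to the letters CCAAT at position -100 from the start, the cAMP response element TGACGTCA at -57, and TATAAA at -25 and, on the opposite strand and overlapping it, at -29. Of all 32851 RefSeq promoters of this length, 1.79% held TGACGTCA, 13.6% held TATAAA and 37.4% held CCAAT. The letters CACGTG and GGGCGG, held by 7.15% and 35.7% of promoters, were not in this window. A match to letters is a description and shows no bound factor.

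Rian was also lower in every tMCAO library, by a smaller amount. This host of snoRNAs and microRNAs (ENSMUSG00000097451, chr12:109603940-109661716, plus strand) has 18234 bases of exon. Its level was 37.6, 40.2 and 39.3 FPKM in Sham 1, 2 and 3 and 33.3, 33.3 and 34.4 FPKM in tMCAO 1, 2 and 3. The means were 39.0 ± 1.33 and 33.7 ± 0.659 FPKM (SD, n = 3 each), a log2 fold change of -0.21 (SE 0.06). The groups did not overlap, and each was tight.

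Mirg overlapped between the groups. This microRNA host (ENSMUSG00000097391, chr12:109729764-109749460, plus strand) was at 3.20, 3.34 and 3.12 FPKM in the Sham libraries and at 2.58, 3.19 and 2.76 FPKM in the tMCAO libraries. Only tMCAO 2 reached the Sham range. The log2 fold change was -0.14 (SE 0.09).

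The hosts did not keep a fixed ratio. Meg3 over Rian was 7.27, 6.41 and 6.46 in Sham 1, 2 and 3 and 4.65, 5.66 and 6.52 in tMCAO 1, 2 and 3, so tMCAO 3 lay within the Sham range and the other tMCAO libraries lay below it. Rian over Mirg was 11.7, 12.1 and 12.6 in the Sham libraries and 12.9, 10.4 and 12.5 in the tMCAO libraries, and these ranges overlapped. Within the libraries of each group, Meg3 and Rian varied together only loosely, with a Pearson r of 0.26 over 6 deviations from the group means.

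**Figure D1:**
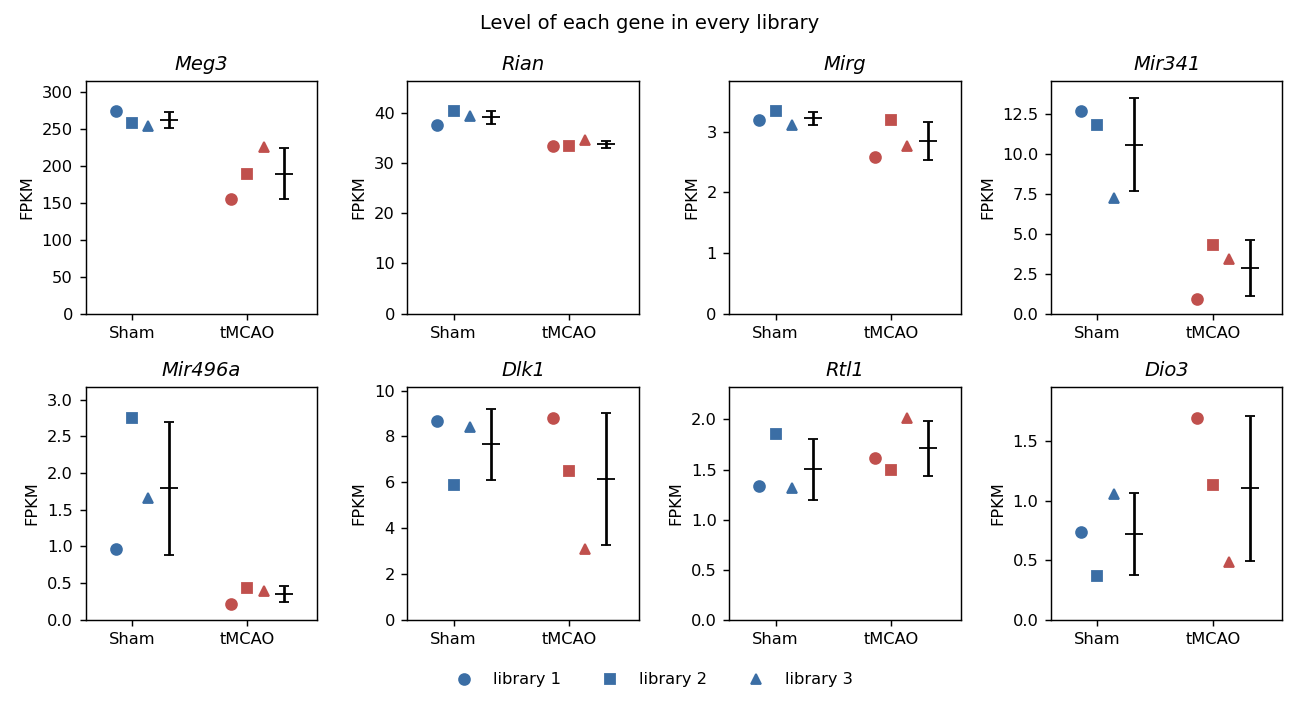
Level of each of the 8 genes in FPKM (vertical axes, each from 0) in the 3 Sham and 3 tMCAO libraries, points being single libraries and bars the mean and SD. Meg3, Rian, Mir341 and Mir496a are lower in all 3 tMCAO libraries, while Mirg, Dlk1, Rtl1 and Dio3 overlap.

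Mir341 differed more than its host. The 96-base gene (ENSMUSG00000070101, chr12:109611500-109611595, plus strand) lies in an intron of Rian. Its level was 12.7, 11.9 and 7.27 FPKM in Sham 1, 2 and 3 and 0.910, 4.27 and 3.45 FPKM in tMCAO 1, 2 and 3. All tMCAO libraries were lower than all Sham libraries, and tMCAO 1 was the lowest. The means were 10.6 ± 2.91 and 2.88 ± 1.75 FPKM (SD, n = 3 each), a log2 fold change of -1.67 (SE 0.39). These values rest on few reads: 48, 47 and 32 in the Sham libraries and 5, 24 and 21 in the tMCAO libraries. The ratio of Mir341 to Rian was 0.337, 0.295 and 0.185 in Sham and 0.0273, 0.128 and 0.10 in tMCAO, again without overlap.

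Mir496a was near the limit of detection. The 79-base gene (ENSMUSG00000070136, chr12:109739119-109739197, plus strand) lies in an intron of Mirg. It was at 0.963, 2.76 and 1.66 FPKM in the Sham libraries and at 0.221, 0.433 and 0.399 FPKM in the tMCAO libraries. The groups did not overlap, but only 18 reads in the Sham libraries and 5 in the tMCAO libraries stood behind them. The log2 fold change was -1.0 (SE 0.23) in the fit on the table of all genes, the only one that listed it.

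The paternally expressed coding genes showed no common direction. Dlk1, a transmembrane relative of Notch ligands (ENSMUSG00000040856, chr12:109452823-109463336, plus strand), was at 8.69, 5.86 and 8.42 FPKM in Sham 1, 2 and 3 and at 8.83, 6.48 and 3.11 FPKM in tMCAO 1, 2 and 3. The ranges overlapped, with tMCAO 1 the highest and tMCAO 3 the lowest of all 6 libraries, and the log2 fold change was -0.35 (SE 0.31).

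Rtl1, a retrotransposon-derived gene (ENSMUSG00000085925, chr12:109589193-109600330, minus strand), was at 1.33, 1.85 and 1.32 FPKM in the Sham libraries and at 1.62, 1.5 and 2.02 FPKM in the tMCAO libraries. Its log2 fold change was 0.12 (SE 0.12), and microRNA genes on either strand, 6 of them on the opposite one, overlap 8.4% of its exon bases. Dio3, the deiodinase that inactivates thyroid hormone (ENSMUSG00000075707, chr12:110279068-110281097, plus strand), was at 0.737, 0.370 and 1.05 FPKM in Sham and at 1.70, 1.13 and 0.481 FPKM in tMCAO. Its log2 fold change was 0.27 (SE 0.24). Both genes overlapped between the groups.

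Sham 2 and tMCAO 3 stood apart from the other libraries in markers of striatal neurons and choroid plexus, and some genes of the locus were at the end of their group's range in them. The summed level of 6 striatal neuron markers was 334 FPKM in Sham 2 and 301 FPKM in tMCAO 3 against 46.8 to 75.1 FPKM in the other libraries. The sum of 6 choroid plexus markers was 25.3 FPKM in Sham 2 and 9.66 FPKM in tMCAO 3 against 353 to 730 FPKM in the other libraries. Within each group, these libraries had the lowest Dlk1 and Dio3 and the highest Rtl1. This was not confined to the coding genes. Rian, at 40.2 FPKM in Sham 2 and 34.4 FPKM in tMCAO 3, and Gm26906, at 148 and 192 FPKM, were also the highest of their groups. For Rian the next libraries were close, at 39.3 FPKM in Sham 3 and 33.3 FPKM in tMCAO 2. Meg3 was the highest of its group in tMCAO 3 but not in Sham 2. Mirg and Mir496a were the highest in Sham 2 but not in tMCAO 3, and Mir341 was the highest in neither. The share of all genes with such an order was not counted. Without both of them, a comparison chosen after seeing the data, the log2 fold change was -0.16 for Dlk1, 0.14 for Rtl1 and 0.34 for Dio3. It was -0.62 for Meg3, -0.20 for Rian, -0.10 for Mirg and -1.74 for Mir341.

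**Figure D2:**
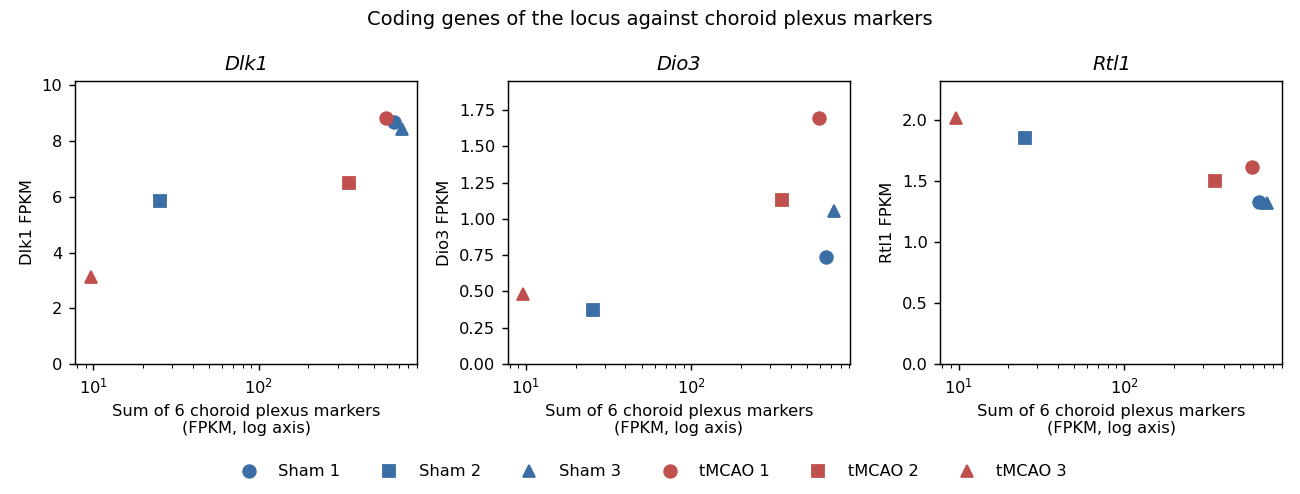
Levels of Dlk1, Rtl1 and Dio3 in FPKM (vertical axes) against the summed level of 6 choroid plexus markers in FPKM (horizontal log axis), 1 point per library. Sham 2 and tMCAO 3, at 25.3 and 9.66 FPKM of the markers, hold the lowest Dlk1 and Dio3 and the highest Rtl1 of their groups.

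General markers of neurons, the main source of Meg3 known in the brain, did not pass the test. Of 12 neuron markers, 0 passed at an adjusted p below 0.05 by limma, beside 16.2% of all tested genes, with a median log2 fold change of -0.09. Among them, 1 had an unadjusted p below 0.05, and 0 passed by voom on recovered reads. Without tMCAO 1, the number that passed by limma was 1. Their summed level was 1813 to 1910 FPKM in the Sham libraries and 1676 to 2042 FPKM in the tMCAO libraries. Camk2a, a kinase of excitatory neurons, was at 327 ± 31.3 and 303 ± 89.7 FPKM (adjusted p = 0.64), and Snap25, a synaptic fusion protein, at 283 ± 18.8 and 308 ± 52.9 FPKM (adjusted p = 0.58). Map2, at 84.4 ± 4.53 and 72.6 ± 3.51 FPKM (adjusted p = 0.092 by limma), and Nefm, at 64.5 ± 4.59 and 52.8 ± 9.97 FPKM, were lower in every tMCAO library. Syp, at 208 ± 9.31 and 226 ± 8.67 FPKM, was higher in every one. Of 6 microglia markers, 4 fell by limma, beside 7.28% of all tested genes called lower. The number was 2 without any 1 of the Sham libraries and 3 without tMCAO 1. Their sum was 86.6 to 99.6 FPKM in Sham and 55.6 to 69.1 FPKM in tMCAO. The sum of 6 hippocampal neuron markers was 71.5 to 90.7 FPKM in Sham and 62.0 to 91.2 FPKM in tMCAO. Of these, Zbtb20, a transcription factor of hippocampal neurons that is also found in astrocytes, fell from 4.87 ± 0.535 to 2.98 ± 0.604 FPKM (adjusted p = 0.032 by limma). That call was lost without any 1 of the Sham libraries and without tMCAO 1, with an adjusted p of up to 0.12. The sum of 6 oligodendrocyte markers was 791 to 976 FPKM in Sham and 659 to 1322 FPKM in tMCAO. The part of these cell types in the levels of the locus was not tested.

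Between all tested genes, limma called 2847 of 17561 (16.2%) at an adjusted p below 0.05, with 1569 (8.93%) higher and 1278 (7.28%) lower in tMCAO. Of the 7 chosen genes in that fit, 1 was among the genes called, Mir341. In the fit on the table of all genes, which called 6.76% of genes lower, 2 of 8 were called, Mir341 and Mir496a. Groups that did not overlap, with tMCAO lower, were seen for 4 of the 8 and for 20.1% of all genes with a mean of at least 0.5 FPKM. Since the 8 were chosen on this contrast, nothing is read from these counts. Without any 1 of the Sham libraries the number called was 0, and without tMCAO 3 it was 3. In the authors' deposited table, which gives Sham over tMCAO, the log2 fold change was 0.47 for Meg3, 0.21 for Rian and 1.88 for Mir341. It was 0.18 for Mirg, 0.32 for Dlk1, -0.19 for Rtl1 and -0.61 for Dio3, with no value for Mir496a.

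The rows of the interval that were not among the 8 were tested as rows of the whole fit. Of 17 such rows tested, 2 rose, 2 fell and 13 did not pass, beside 8.93% higher and 7.28% lower over all genes, with a median log2 fold change of -0.22 beside 0.00 over all tested genes. The 17 rows are neighbours and partly share introns, so they are not independent. Of 30 such rows with a mean of at least 0.5 FPKM in the table of all genes, 5 were lower in every tMCAO library, beside the 20.1% of all genes.

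The snoRNA rows in introns of Rian went different ways. Gm24564 was at 11.2, 12.9 and 13.1 FPKM in the Sham libraries and at 3.49, 4.79 and 6.72 FPKM in the tMCAO libraries. It fell by 1.19 on the log2 scale (SE 0.19, adjusted p = 0.015 by limma), with the groups clear of each other. Gm23600 was at 33.2, 27.6 and 26.1 FPKM in Sham and at 40.9, 36.8 and 46.6 FPKM in tMCAO. It rose by 0.50 (SE 0.12, adjusted p = 0.036), a call that was lost with libraries set to an equal FPKM sum and with voom. Pooled over the 5 snoRNA rows in Rian introns, the level was 10.1, 9.34 and 8.65 FPKM in Sham and 9.92, 9.93 and 11.8 FPKM in tMCAO, with overlap. Most of these reads were of Gm23600, with 259 in Sham and 529 in tMCAO. The pooled length includes Gm24899, which lies within an exon of Gm26945 on the same strand and held 0 reads. Elsewhere in the genome, 4 of 117 tested snoRNA rows rose and 6 fell, with a median log2 fold change of -0.00.

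Mir1188, whose hairpin lies 226 bases downstream of Mir341 in the same intron, did not pass the test. It was at 4.23, 7.87 and 7.82 FPKM in the Sham libraries and at 0.437, 3.99 and 3.02 FPKM in the tMCAO libraries. The groups did not overlap, and tMCAO 1 was the lowest library as it was for Mir341. The log2 fold change was -1.28 (SE 0.47), with an adjusted p of 0.10 by limma, and 102 reads in Sham and 54 in tMCAO stood behind it.

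Among the rows within Mirg, Mir453, which shares the seed of miR-496a-5p, was at 3.82 ± 1.08 FPKM in Sham and 1.57 ± 0.846 FPKM in tMCAO (adjusted p = 0.053 by limma). Mir541 was at 4.57 ± 0.794 and 2.06 ± 1.27 FPKM (adjusted p = 0.075). Neither passed, although each was lower in all 3 tMCAO libraries. Without tMCAO 2, Mir453 passed with a log2 fold change of -1.18, and without tMCAO 3, Mir541 passed with -1.24. Over all genes, the fit without tMCAO 2 called 2183 genes and that without tMCAO 3 called 3896, in place of 2847. A pass in 1 such fit is a description only. Mir3072, with 69.9% of its bases in Mirg exons, fell from 5.98 ± 2.09 to 2.89 ± 0.367 FPKM (adjusted p = 0.046). That call did not hold in any fit that left out 1 library, nor with no filter on low levels or with voom. The pseudogene Gm3379, between Mirg and Dio3, rose from 0.247 ± 0.0802 to 0.767 ± 0.0900 FPKM (adjusted p = 0.019). Only 20 reads in Sham and 88 in tMCAO stood behind it. Its mean of 0.507 FPKM passed the filter of 0.5 FPKM only through the tMCAO group. Its call, which is among the rows counted above as risen, is therefore a description only.

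The calls among these neighbours depended on single libraries. The number of called rows was 0 without Sham 1, 1 without Sham 2 and 0 without Sham 3, and the highest adjusted p that any of the 4 called rows reached without 1 library was 0.13. Without tMCAO 1, 2 or 3, the number was 2, 4 and 4.

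MicroRNA rows were also pooled by their place, as reads per summed length. The 7 rows in introns of Rian and Mirg other than Mir341 and Mir496a were at 2.52, 2.93 and 3.22 FPKM in Sham 1, 2 and 3 and at 0.377, 1.76 and 1.62 FPKM in tMCAO 1, 2 and 3. All tMCAO libraries were below all Sham libraries, and 60, 73 and 89 reads in Sham and 13, 62 and 62 reads in tMCAO stood behind these levels. Most of these reads were of Mir1188, Mir541 and Mir453, given above, with 102, 52 and 40 reads in Sham and 54, 34 and 23 in tMCAO. The 6 rows antisense to exons of Rtl1, which include Mir127, Mir431, Mir433 and Mir434, were at 2.41, 3.61 and 3.13 FPKM in Sham and at 2.78, 2.45 and 4.40 FPKM in tMCAO. The 7 rows between Meg3 and Rtl1 were at 0.873, 1.03 and 1.07 FPKM in Sham and at 0.573, 0.897 and 1.78 FPKM in tMCAO. Both of these sets overlapped between the groups, as did the 26 rows between Rian and Mirg, at 0.0955 ± 0.0221 FPKM in Sham and 0.106 ± 0.0399 FPKM in tMCAO.

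For comparison, 295 microRNA rows in introns of other genes on the same strand were at 1.73, 1.70 and 1.66 FPKM when pooled in the Sham libraries. In the tMCAO libraries they were at 1.26, 1.63 and 1.84 FPKM, so the groups overlapped and tMCAO 1 was again the lowest. Of 83 such rows tested, 2 passed by limma, both higher, and the median log2 fold change was -0.11. The difference between the rows of the locus and those elsewhere was not tested.

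**Figure D3:**
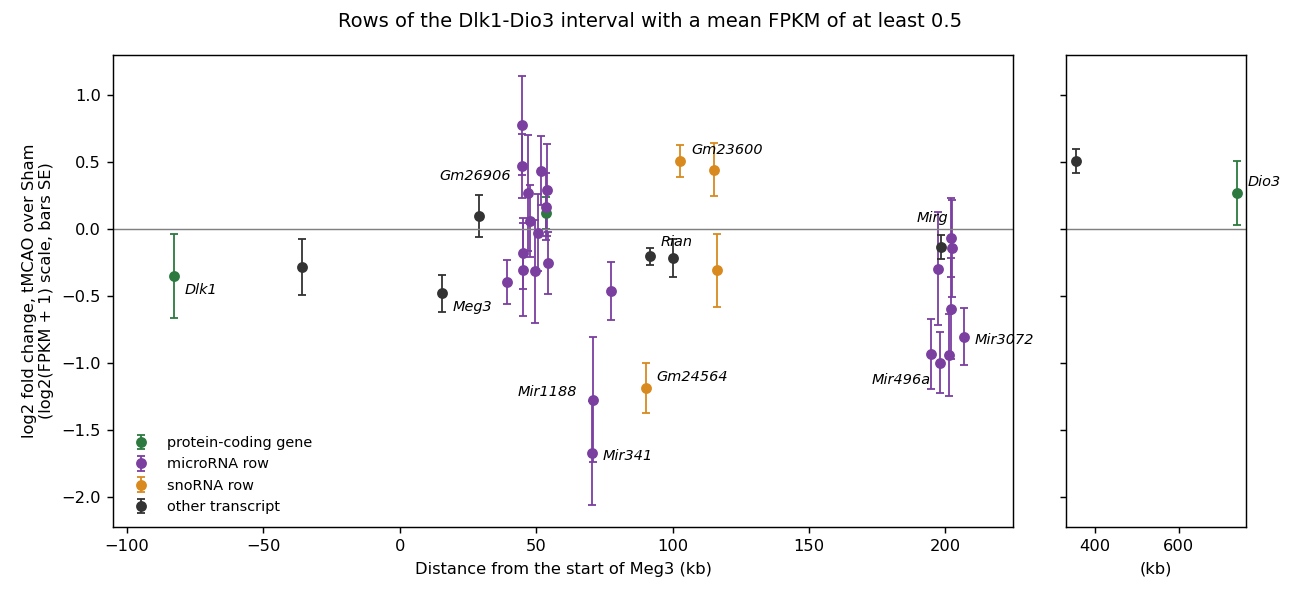
Log2 fold change of tMCAO over Sham (vertical axis, log2(FPKM + 1) scale, bars being the SE) for the 38 rows of the interval with a mean of at least 0.5 FPKM, against the distance from the start of Meg3 in kb (horizontal axis, in 2 panels). Mir341 at -1.67, Mir1188 at -1.28 and Gm24564 at -1.19 lie inside Rian, whose own value is -0.21.

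**Figure D4:**
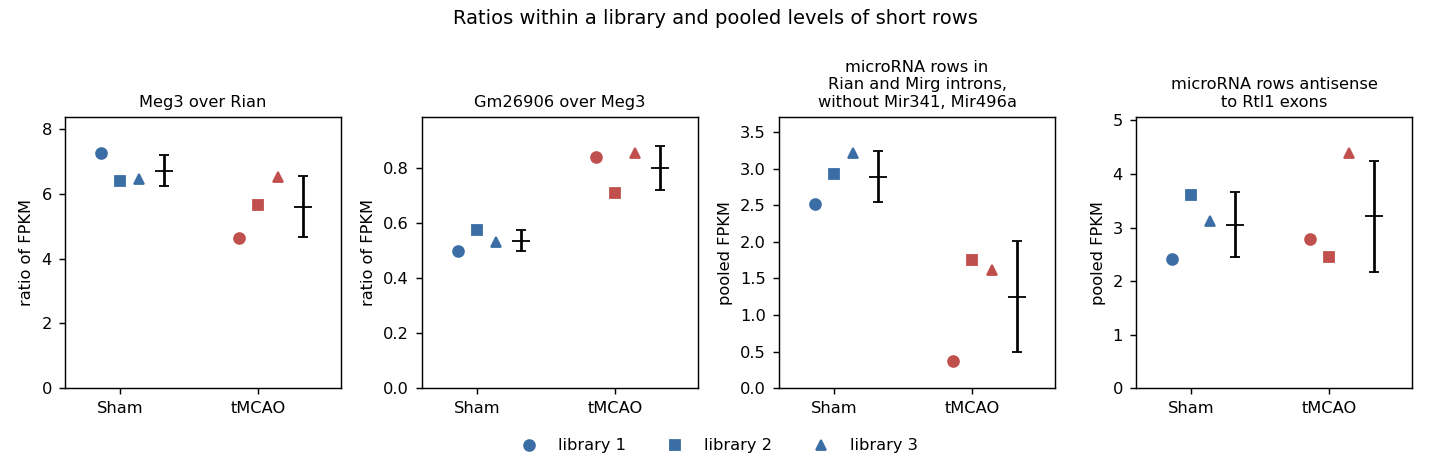
Ratios of FPKM within a library and pooled levels of short rows (vertical axes) in the 3 Sham and 3 tMCAO libraries, points being single libraries and bars the mean and SD. Gm26906 over Meg3 is at 0.499 to 0.576 in Sham and 0.709 to 0.855 in tMCAO, while Meg3 over Rian overlaps.

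Coding genes that flank the interval within 1 Mb on either side held 3 called genes. Of 22 tested, 2 rose and 1 fell, beside 8.93% and 7.28% of all tested genes, with a median log2 fold change of 0.04. Amn, a partner in endocytosis of vitamin B12, rose from 1.39 ± 0.337 to 3.41 ± 1.02 FPKM (adjusted p = 0.028 by limma), and Slc25a29, a mitochondrial carrier of basic amino acids, from 3.64 ± 0.206 to 4.70 ± 0.00443 FPKM (adjusted p = 0.038). Eml1, a microtubule-binding protein, fell from 9.06 ± 0.603 to 6.29 ± 0.801 FPKM (adjusted p = 0.029). The call of Slc25a29 was lost with no filter, with an equal FPKM sum and with voom. The number called was 0 without any 1 of the Sham libraries and 1, 2 and 4 without tMCAO 1, 2 and 3.

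Imprinted genes of other loci were listed by the parental copy reported to be expressed in the mouse. The levels do not tell the copies apart, so expression from 1 copy in this tissue was not tested. Of 18 paternally expressed genes tested, 1 rose and 3 fell, beside 8.93% and 7.28% of all tested genes, with a median log2 fold change of -0.14. Mest, a member of the hydrolase fold family, fell from 11.4 ± 0.222 to 8.09 ± 0.937 FPKM (adjusted p = 0.024 by limma). The noncoding RNA Peg13 fell from 73.7 ± 1.39 to 60.9 ± 2.19 FPKM (adjusted p = 0.035), and Sgce, epsilon-sarcoglycan, from 2.50 ± 0.0338 to 1.80 ± 0.121 FPKM (adjusted p = 0.035). Zrsr1, a splicing factor gene, rose from 15.3 ± 0.828 to 19.4 ± 0.672 FPKM (adjusted p = 0.029). The call of Zrsr1 was lost with an equal FPKM sum, and that of Sgce with no filter on low levels. Of 13 maternally expressed genes tested, 1 rose and 0 fell, with 0 lower also at an unadjusted p below 0.05 and by voom. The riser was Tssc4, from 11.7 ± 0.903 to 16.9 ± 2.82 FPKM (adjusted p = 0.039), whose call was lost with an equal FPKM sum and with voom. The number called was 0 in both lists without any 1 of the Sham libraries. Without tMCAO 1, 2 and 3 it was 5, 1 and 6 for the paternal list and 0, 1 and 3 for the maternal list.

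Long noncoding RNAs of neurons and nuclei, the class to which Meg3 belongs, held 4 called genes. Of 13 tested, 1 rose, 3 fell and 9 did not pass, beside 8.93% higher and 7.28% lower over all genes, with a median log2 fold change of -0.25. Sox2ot, which overlaps the Sox2 gene, fell from 2.70 ± 0.136 to 1.14 ± 0.146 FPKM (adjusted p = 0.0089 by limma). Neat1, the scaffold of paraspeckles, fell from 4.99 ± 0.530 to 1.74 ± 0.988 FPKM (adjusted p = 0.034), a call lost with a pseudocount of 0.1 in place of 1 (adjusted p = 0.052). Jpx, an activator of Xist, fell from 1.21 ± 0.0901 to 0.788 ± 0.0388 FPKM (adjusted p = 0.042). Gas5, a snoRNA host, rose from 11.9 ± 0.900 to 22.0 ± 3.38 FPKM (adjusted p = 0.014). Leaving out Sham 1, 2 or 3 gave 1, 2 and 0 calls, and leaving out tMCAO 1, 2 or 3 gave 3, 3 and 5. Among 5 tested host transcripts of microRNAs elsewhere, 1 was called, beside 16.2% of all genes: Mir22hg rose from 7.58 ± 0.316 to 12.7 ± 1.42 FPKM (adjusted p = 0.012), and 0 fell, with 0 lower also at an unadjusted p below 0.05 and by voom. Its call was lost without Sham 1 and without Sham 3, where the highest adjusted p was 0.062.

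Genes of thyroid hormone handling, in which Dio3 takes part, held 3 called genes. Of 15 tested, 2 rose and 1 fell, beside the 16.2% called in either direction over all genes, with a median log2 fold change of 0.06. Dio2, the deiodinase that makes the active hormone and so acts against Dio3, rose from 11.8 ± 2.12 to 19.3 ± 2.01 FPKM (adjusted p = 0.023 by limma). Slco1c1, a thyroxine transporter of brain vessels and astrocytes, fell from 10.7 ± 0.508 to 4.18 ± 0.898 FPKM (adjusted p = 0.0089). Crym, a cytosolic binder of thyroid hormone, rose from 13.4 ± 0.729 to 20.4 ± 2.79 FPKM (adjusted p = 0.022). Leaving out Sham 1, 2 or 3 gave 1, 2 and 0 calls, and leaving out tMCAO 1, 2 or 3 gave 1, 3 and 5.

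Regulators of imprints and Polycomb genes act on this and other loci. Of 19 tested, 2 rose and 0 fell, beside 8.93% and 7.28% of all tested genes, with 2 lower at an unadjusted p below 0.05 and 0 by voom. Trim28, the cofactor that keeps imprints methylated, rose from 28.1 ± 0.956 to 37.1 ± 2.46 FPKM (adjusted p = 0.021 by limma), and Ezh2, the methyltransferase of Polycomb repressive complex 2, from 0.997 ± 0.0839 to 1.70 ± 0.153 FPKM (adjusted p = 0.023). Neither was called without any 1 of the Sham libraries, and the highest adjusted p was 0.10. Of 7 reported targets of microRNAs of the locus, 0 passed by limma, 1 had an unadjusted p below 0.05 and 0 passed by voom. Sv2a, a synaptic vesicle protein, was at 107 ± 1.34 and 113 ± 6.34 FPKM (adjusted p = 0.44), and Pum2, an RNA-binding repressor of translation, at 28.1 ± 0.775 and 31.2 ± 1.12 FPKM (adjusted p = 0.14).

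The genes most like Meg3 were sought among 7996 genes outside the interval with a mean of at least 5 FPKM, by Pearson r of log2(FPKM + 1). Over the 6 libraries these were Bptf, Trappc11 and Kcnk9, each with r of 0.99, and Agrn, Tspan17 and Elfn2, each with r of 0.98. Kcnk9, a potassium channel expressed from the maternal copy, was at 14.8, 14.5 and 14.2 FPKM in the Sham libraries and at 11.3, 12.4 and 14.1 FPKM in the tMCAO libraries. By deviations from the group means, the most alike were Mcts1, Clstn3, Dctn5, Crebrf, Ankra2 and Mir7220, with r from 0.99 to 0.997. Both orders rest on 6 libraries and a choice of the highest among many genes.

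Among the chosen genes, r with Meg3 over the 6 libraries was 0.93 for Mir341, 0.84 for Rian, 0.75 for Mir496a and 0.71 for Mirg. It was -0.74 for Dio3, -0.15 for Rtl1 and -0.09 for Dlk1. By deviations from the group means it was 0.77 for Mir341, -0.84 for Dlk1 and -0.81 for Dio3. These values share libraries and depth and are a description.

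The order of levels per length differed between the groups only below Rian. In Sham it ran from Meg3 to Rian, Mir341, Dlk1, Mirg, Mir496a, Rtl1 and Dio3, where, of neighbours in this order, Mir341 and Dlk1, and also Mir496a and Rtl1, overlapped in range. In tMCAO it ran from Meg3 to Rian, Dlk1, Mir341, Mirg, Rtl1, Dio3 and Mir496a, where, of neighbours, Dlk1 and Mir341, Mir341 and Mirg, and Rtl1 and Dio3 overlapped.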

How the data were processed

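The authors deposited FPKM per gene for 6 libraries in a table of all 53465 genes, and a comparison table of 22647 genes with their log2 fold changes and p-values (Sham over tMCAO). The submitters' processing notes name mm10; no source used here gives the aligner or counter. With exon lengths of GENCODE M21, 94.1% of the 36452 rows above 0 gave whole reads (tolerance 1e-06), and the other 2156 did so with another length, for 39027684 to 46278429 assigned reads in the Sham group and 57797190 to 66157969 in the tMCAO group.

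Genes with a mean of at least 0.5 FPKM were tested on log2(FPKM + 1), which understates the change of low genes, with limma 3.58.1 in R 4.3.3, Sham against tMCAO, and Benjamini-Hochberg adjustment over all genes tested (threshold 0.05). Genes missing from the comparison table took values from the same fit on the table of all genes. The fit was tested on simulated data. The members and gene lists were chosen with earlier results of these data known. Named were the 8 genes, rows of the interval with a mean of at least 0.5 FPKM, up to 4 genes per list with the smallest adjusted p that passed (2 with the highest mean where none passed), and the 6 genes most like Meg3 by each measure, leaving out predicted models. Rmst, Cdr1os, Rncr3 and Norad were not matched. Alternatives were another pseudocount, filters, rescalings, voom on recovered reads and leaving out each library.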

Additional observations from a re-analysis of the deposited data

How the results depend on the processing

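No paired analysis was possible because the labels number all samples in 1 series with no number shared between Sham and tMCAO, and the numbers of the tMCAO columns could not be tied to samples, so nothing makes equal column numbers a pair. Fits that left out 1 library called 75 to 3896 genes in place of 2847: leaving out Sham 1, 2 or 3 gave 124, 419 and 75, and leaving out tMCAO 1, 2 or 3 gave 1523, 2183 and 3896. Over these fits the calls ranged from 0 to 4 among other rows of the interval, 0 to 4 among flanking genes, 0 to 6 and 0 to 3 among paternally and maternally expressed imprinted genes, 0 to 5 among long noncoding RNAs, 0 to 2 among microRNA hosts, 0 to 5 among thyroid hormone genes, 0 to 4 among regulators and 0 to 1 among neuron markers. Each of the 22 named genes past the threshold lost its call in at least 1 of these fits. With an equal FPKM sum the split was 1048 higher and 1584 lower in place of 1569 and 1278, the median of all genes shifted by -0.06, 0 maternally expressed genes and 1 neuron marker were called. Voom gave 0 maternally expressed genes and 2 rows of the interval. A mean of at least 2 FPKM left 2 long noncoding RNAs and 1 regulator, with fewer genes tested, and no filter gave 2 microRNA hosts. Leaving out both Sham 2 and tMCAO 3, chosen after seeing the data, gave 1 regulator, which was neither Trim28 nor Ezh2. The cause was not tested. Over all settings the log2 fold change ran from -0.62 to -0.34 for Meg3, -0.28 to -0.19 for Rian, -0.20 to -0.09 for Mirg, -2.06 to -1.23 for Mir341, -0.63 to 0.00 for Dlk1, 0.04 to 0.22 for Rtl1 and 0.07 to 0.51 for Dio3. Rtl1 and Dio3 gave no value at a mean of at least 2 FPKM, and Mir496a was fitted only in the table of all genes. Reads limit the short rows most.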
